A study of Rattus norvegicus with 6 samples.

Results

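The miR-130 and miR-301 family of the rat has 4 hairpins, rno-mir-130a, rno-mir-130b, rno-mir-301a and rno-mir-301b (here miR-130a and so on), and was followed through small RNA libraries of RSC96, a rat Schwann cell line. The members were chosen by the name of the hairpin under which a sequence was listed, with numbered copies joined. Of the 4 hairpins, 3 were listed, with 4 of their mature arms, out of 752 hairpins and 932 arms in the whole series. No sequence was listed under miR-301b in any library. An arm is the 5′ side (5p) or the 3′ side (3p) of the hairpin, and each sequence was assigned by whether its centre lies before or after the midpoint of the hairpin. The arms of each hairpin were summed as part of this choice, so which arm held more reads is given as a description without a test.

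The cells were cultured for 48 h in high glucose or in low glucose, the control, with 3 libraries in each group, and all libraries came from the same cell line with no other treatment in the labels. Schwann cells are the glia that ensheath the axons of peripheral nerves, and RSC96 is an immortalised line of them, which holds neither axons nor the other cells of a nerve. The series title speaks of exosomes, while the sample labels give total RNA, name the tissue as nerve and describe the extraction of retinas, and they state neither the glucose concentrations nor whether vesicles or whole cells were taken. The labels do not state whether replicates are separate cultures. If they are not, the p-values reflect technical spread.

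MicroRNAs are cut from hairpin precursors by the nucleases Drosha and Dicer. Of the resulting duplex, the strand that stays in an Argonaute protein, the guide, pairs with messenger RNAs through its seed, bases 2 to 8, and the other strand, the passenger, is mostly degraded. In this family the 3p arms are known as the guides. They share a seed and are known to repress mRNAs of PPARγ, a regulator of fat and lipid genes, and of other regulators of growth and vessel formation. The 5p arms are usually treated as passengers.

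The sequences below, from RefSeq (GRCr8), show what the members share and where they differ. The 3p arms have the same seed, in capitals, and diverge after it.
miR-130a-3p: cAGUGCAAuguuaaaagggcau
miR-130b-3p: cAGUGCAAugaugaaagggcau
miR-301b-3p: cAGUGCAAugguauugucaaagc
The 5p arms have 3 different seeds, again in capitals, and only the pair from miR-301a and miR-301b shares its seed.
miR-130a-5p: gCUCUUUUcacauugugcuacu
miR-130b-5p: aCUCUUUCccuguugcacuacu
miR-301a-5p: gCUCUGACuuuauugcacuac
miR-301b-5p: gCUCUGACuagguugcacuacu
Counted without gaps from the first base, miR-130a-3p and miR-130b-3p have the same base at 20 of 22 positions, and miR-130b-3p and miR-301b-3p at 12 of 22. Among the 5p arms, miR-130b-5p matches miR-130a-5p at 15 of 22 positions and miR-301a-5p at 15 of 21. The letters UUGCACU, the reverse complement of the 3p seed, start at base 13 of miR-130b-5p, miR-301a-5p and miR-301b-5p. Searched on the given strand alone, they occur in 8 of the 693 mature rat miRNAs of the table, or 1.15%. In 3 of the other 5, miR-25-3p, miR-92a-3p and miR-92b-3p, they start at base 3.

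The member that carried nearly all the reads was miR-130b. Its hairpin, with both mature arms in capitals, lies on the plus strand at chr11:97384380-97384461 (RefSeq, GRCr8) and is identical to the hairpin in the deposited files.
miR-130b hairpin: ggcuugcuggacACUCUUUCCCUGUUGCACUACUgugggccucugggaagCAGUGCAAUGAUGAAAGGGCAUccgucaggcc
It falls within the span of the gene 2610318N02Rikl, 269 bases downstream of the miR-301b hairpin. The miR-301a hairpin lies within the spans of Ska2, a gene for a kinetochore protein, and Prr11, and the miR-130a hairpin lies on chromosome 3 and overlaps that of Mir3590. The exon and intron structure of these genes was not used here.

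The high glucose libraries held 963706 to 1354456 counts and the low glucose libraries 114615 to 148143, and sequences with fewer than 2 reads were not listed in any of them. Levels are given as CPM, counts scaled to a common library size by TMM. At the low glucose depths a single read stood for 6.69 to 8.94 CPM, against 0.81 to 1.03 CPM in high glucose. No miRNA is specific to Schwann cells, so the labelled cell type was not checked by a marker of its own. The summed level of miR-21, miR-221 and miR-222, abundant in such lines, was 153769 to 219511 CPM with high and 366741 to 458857 CPM with low glucose. That sum was mostly miR-21-5p, called lower with high glucose (means of 173027 against 419856 CPM), while miR-222-3p (17756 against 2142 CPM) and miR-221-3p (6433 against 3436 CPM) were called higher. All 3 erythroid markers were listed, and their sum was 760 to 952 CPM in the high and 3243 to 6381 CPM in the low glucose libraries. Of the neuronal markers 4 of 5 were listed, at 16654 to 22873 and 7093 to 9259 CPM, with miR-124 at 0 in both groups and miR-129 at 0 in low glucose. Here miR-128-3p carried the higher sum (means of 18205 against 1987 CPM), whereas miR-218a-5p was called lower (933 against 4634 CPM) and miR-9a-5p stood at 1502 against 1473 CPM. The 3 liver markers stood at 9172 to 15554 and 3190 to 4683 CPM. The leukocyte markers (3 of 3 listed, 22.8 to 89.9 against 53.5 to 107 CPM) and the retinal and sensory ones (4 of 5, 60.3 to 116 against 66.9 to 134 CPM, with miR-96 at 0) overlapped between the groups. The 4 mesenchymal markers summed to 293 to 356 CPM with high and 382 to 447 CPM with low glucose, with miR-214 at 0 in low. The summed levels of the Schwann cell, erythroid, neuronal, liver and mesenchymal lists and total depth thus did not overlap between the glucose groups. Differences were common beyond these lists, as 41.1% of the 297 tested arms were called higher and 22.6% lower with high glucose. How many arms did not overlap between the groups was not counted. Members of the Schwann cell, neuronal and mesenchymal lists differed in direction. The part of these differences in the results below was not tested.

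miR-130b-5p was higher in high glucose. Its counts were 924, 1447 and 1228 in high glucose replicates 1 to 3 and 9, 16 and 4 in low glucose replicates 1 to 3. As levels these were 954, 1179 and 1003 CPM in high glucose and 62.5, 107 and 35.7 CPM in low glucose. The groups did not overlap, and the lowest high glucose library lay far above low glucose replicate 2, the highest of its group. Group means were 1045 ± 118 CPM for high and 68.4 ± 36 CPM for low glucose (SD, n = 3). Among all listed arms miR-130b-5p ranked 61 to 73 by level in the high glucose libraries and 134 to 207 in the low glucose ones.

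In the fit over all arms miR-130b-5p was the only member arm with enough counts to be tested, and it was called higher by 3.89 on the log2 scale (SE 0.34, edgeR's quasi-likelihood test, Benjamini-Hochberg adjusted p = 6.80e-05), or 14.8-fold. This call stands against a background in which 122 of the 297 tested arms, 41.1%, were called higher. Of all calls 64.6% were then higher (122 against 67 lower), and 49.5% under upper quartile scaling (91 against 93). Over the tested arms the median log2 difference was 0.68. It was -0.04 over 164 tested arms when every library was thinned to the size of the smallest (medians of 20 draws). miR-130b-5p had the 30th highest log2 difference. Above it stood arms listed at 0 in low glucose, such as miR-92b-3p, the highest, and also arms counted in both groups. Among the latter were miR-615-3p (means of 833 against 48.1 CPM, log2 difference 4.19) and miR-151-3p (10793 against 670 CPM, 4.02). The direction did not rest on the scaling, since the group totals differed 9.31-fold while the counts of miR-130b-5p, 3599 against 29, differed 124-fold. Counting error alone, from the 29 low glucose counts, puts the scaled ratio of summed counts of 14.7 between 10.2 and 22 (exact 95% binomial interval). Upper quartile scaling shifted the median of all tested arms by -0.56 on the log2 scale and gave a fold of 9.77, and without low glucose replicate 2 it was 22.7.

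**Figure D1:**
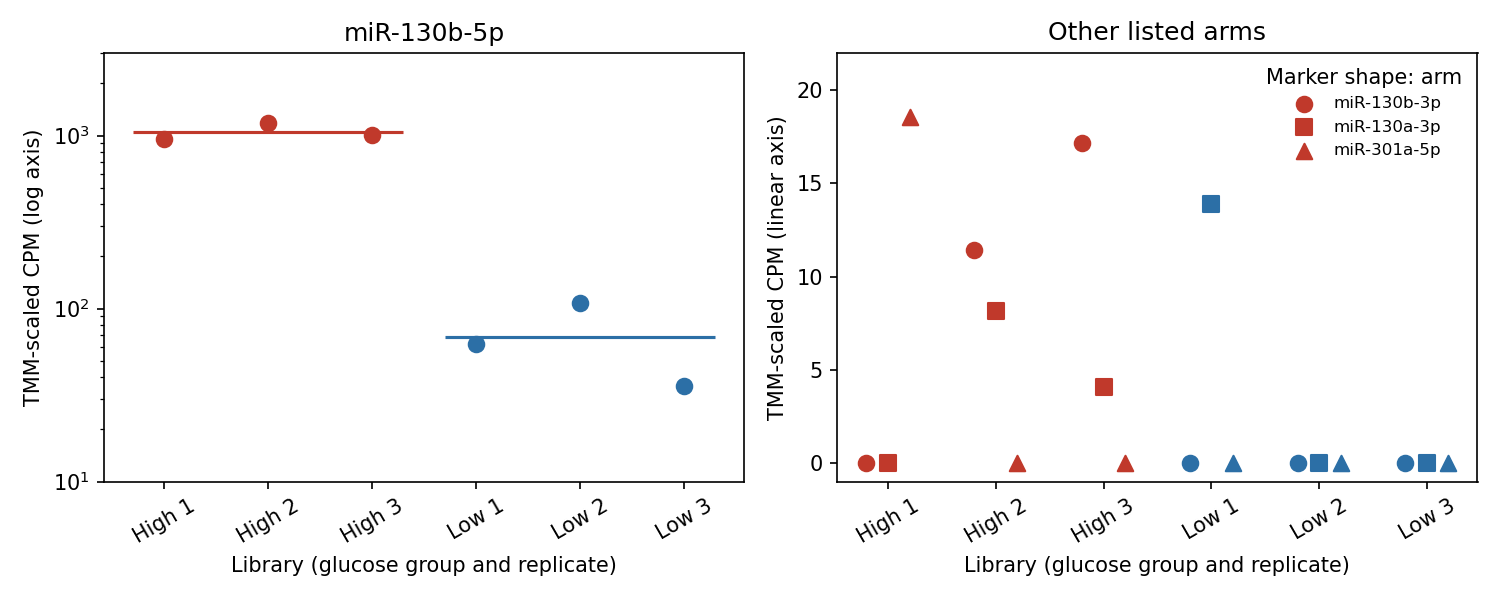
TMM-scaled CPM of the listed family arms in each library, with high glucose in red and low glucose in blue. Left, miR-130b-5p on a log axis with group means as lines, where 954 to 1179 CPM in high glucose lie above 35.7 to 107 CPM in low glucose; right, the other 3 listed arms on a linear axis, none of them above 18.6 CPM.

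Because single-read sequences are not listed, a shallow library loses rare variants of a miRNA. When every library was thinned to 114497 reads and the minimum of 2 reads was applied again, miR-130b-5p kept means of 103, 125 and 99.7 counts in the high glucose libraries over 20 draws and 8, 12.6 and 4 in the low glucose ones, a ratio of group means of 13.3. The minimum removed 3.89% to 6.17% of the counts expected in the thinned high glucose libraries. Counting only its most abundant sequence gave a 10.8-fold difference.

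**Figure D2:**
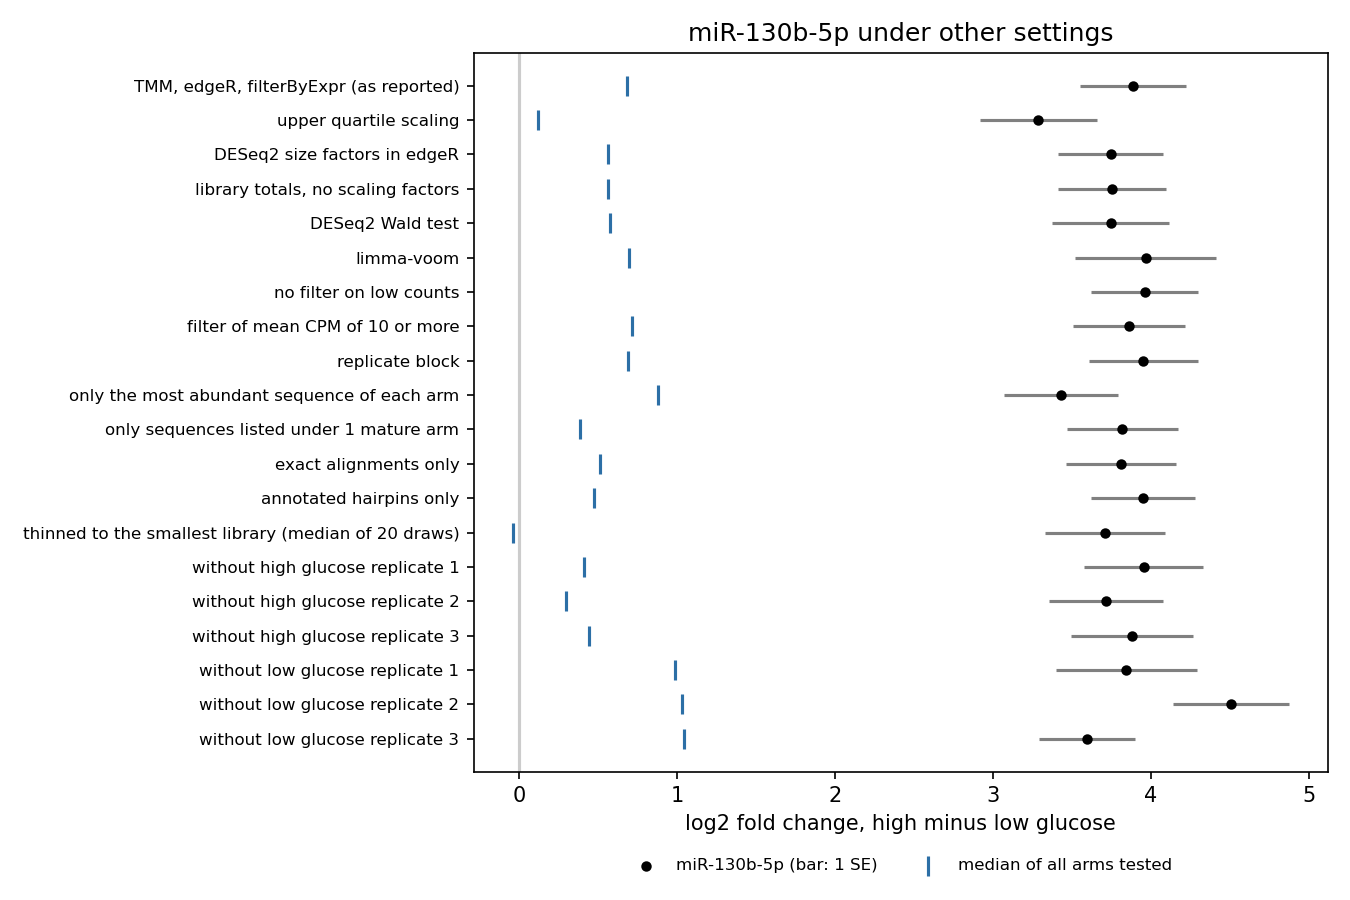
Log2 fold change of miR-130b-5p, high minus low glucose, with 1 SE, for the fit as reported and 19 alternatives; blue ticks mark the median of all arms tested in each, left out for the fit without a filter. Every estimate for miR-130b-5p lies between 3.29 and 4.51.

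The guide arm of textbooks, miR-130b-3p, was scarce beside its partner. It was listed at 0 in high glucose replicate 1, at 14 counts in replicate 2 and at 21 in replicate 3, and at 0 in all 3 low glucose libraries. The 5p arm thus held 100%, 99.0% and 98.3% of the miR-130b counts in the high glucose libraries, with exact 95% binomial intervals for the 3p share of 0% to 0.40%, 0.52% to 1.60% and 1.04% to 2.56%. These intervals cover counting error only, as the reads carry no molecular identifiers here. Over the high glucose group the 5p arm had 103 times the counts of the 3p arm. In low glucose the 5p arm held every listed count, but with 9, 16 and 4 counts the upper bounds for the 3p share were 33.6%, 20.6% and 60.2%. At the pooled high glucose share of 0.96%, only 0.28 reads of the 3p arm would be due among the 29 low glucose counts, so a difference in arm balance between the groups was not detectable at this depth. No test was made of it.

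The tags behind miR-130b-3p were few. The main tag, with its seed in capitals, is the annotated mature form short of its last base.
miR-130b-3p main tag: cAGTGCAAtgatgaaagggca
It had 12 counts in high glucose replicate 2 and 14 in replicate 3. Replicate 2 had another 2 counts in a tag that starts at position 48 of the hairpin, and replicate 3 had 4 in a 19 nt tag from position 51. The remaining 3 counts of replicate 3 came from a 16 nt tag at positions 35 to 50, which lies in the loop and falls on the 3p side of the midpoint.

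**Figure D3:**
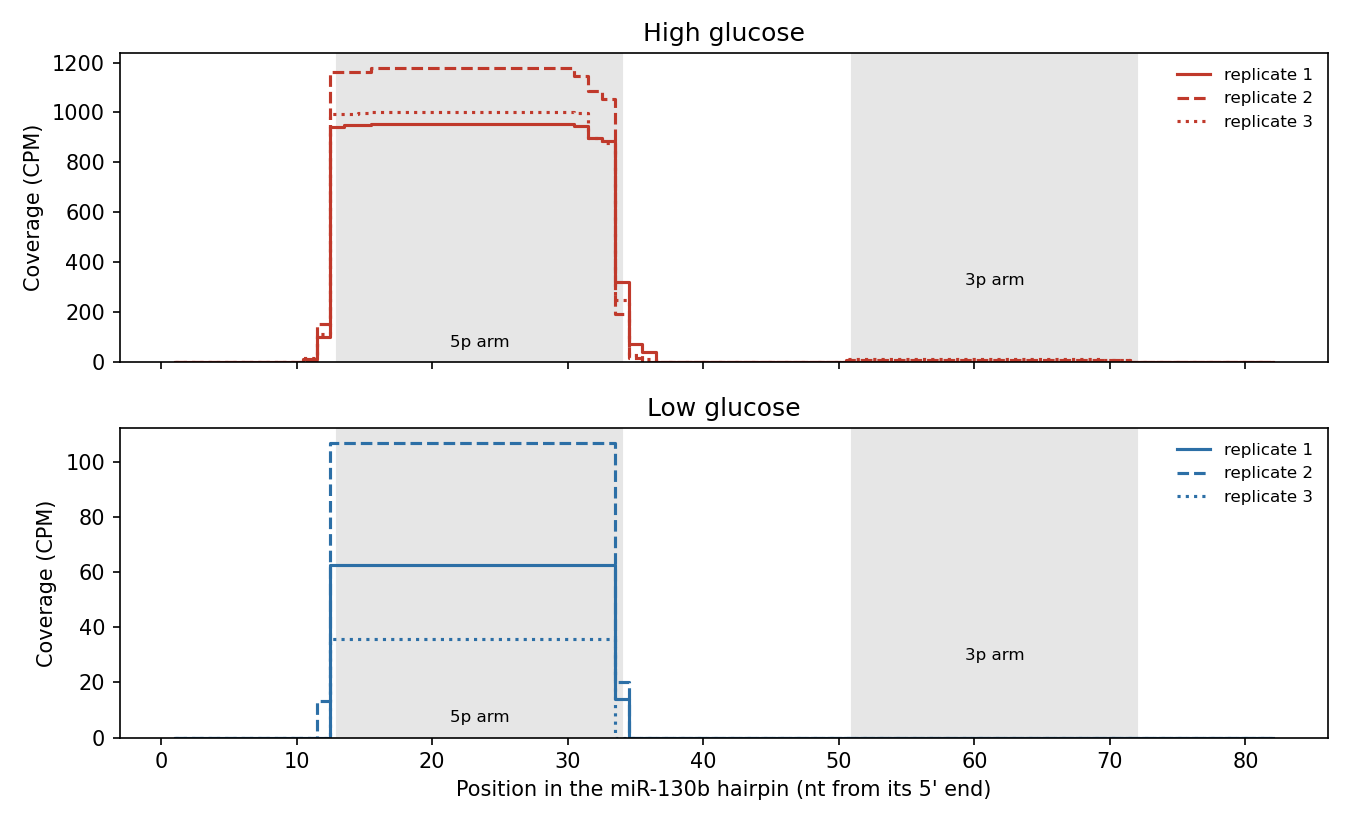
Read coverage in TMM-scaled CPM along the 82 nt miR-130b hairpin for the 3 high glucose (top) and 3 low glucose libraries (bottom, on its own scale), with grey bands at the annotated 5p and 3p arms. Coverage rises at position 13 and falls after positions 33 and 34 in both groups, and coverage in the 3p band reaches at most 18 counts in a library.

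A strong preference for 1 arm was common in these libraries. Of 105 annotated hairpins with 100 or more counts in each high glucose library, 59 had most counts on the 5p arm and 46 on the 3p arm, and 74 had under 2% on their minor arm. miR-130b, with a mean of 99.1% on the 5p arm, was among 41 hairpins above 98%. The minor arm held a smaller share in 64 of the 105 hairpins than in miR-130b, and the median minor share was 0.43%. The excess in miR-130b lies on the arm opposite to the one known as the guide.

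**Figure D4:**
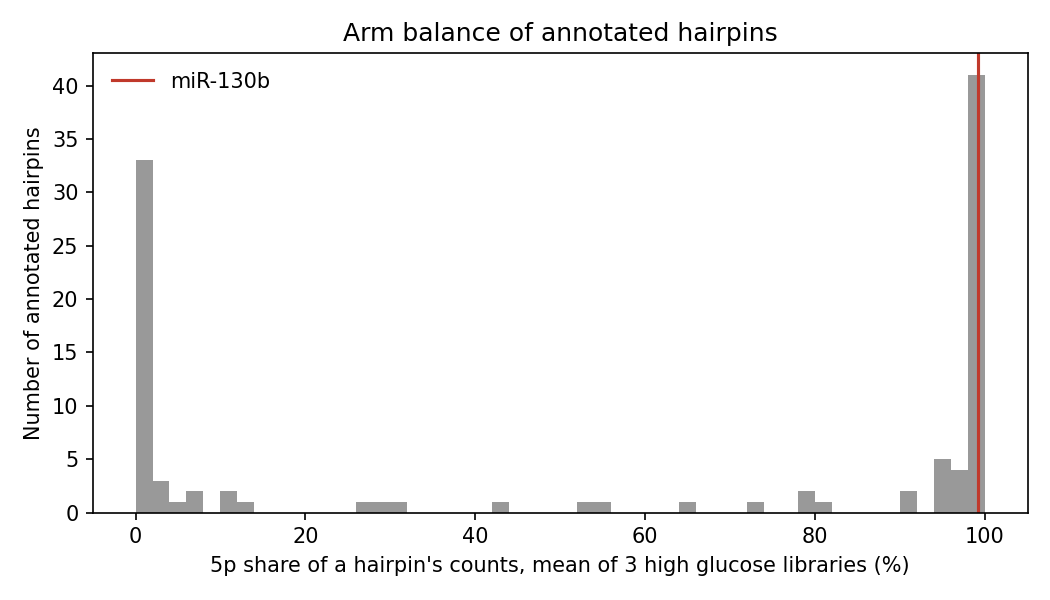
Histogram of the 5p share of counts (mean of the 3 high glucose libraries, in percent) for 105 annotated hairpins, in bins of 2 percentage points, with miR-130b as a red line at 99.1%. Hairpins gather at both ends, and miR-130b lies in the bin at the 5p end.

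The other members were near the limit of listing. miR-130a-3p had 10 counts in high glucose replicate 2, 5 in replicate 3 and 2 in low glucose replicate 1, and was listed at 0 in the other libraries. In CPM these were 8.15, 4.08 and 13.9, and the groups overlapped. All of its tags were listed at the same time under a predicted hairpin on chromosome 3, and the reads, 18, 9 and 3 in all, had been divided between both names. The tag found in both groups carries a mismatch at its last base.
miR-130a-3p tag of high glucose replicate 2 and low glucose replicate 1: cAGTGCAAtgttaaaagggcata
The seed is in capitals, and the tag differs from the hairpin by C23A, counted from 1 at the 5′ end of the tag with the hairpin's base first. Its listed counts were 6 in high glucose replicate 2 and 2 in low glucose replicate 1. No sequence of miR-130a-5p was listed.

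miR-301a appeared in 1 library, as its 5p arm. High glucose replicate 1 had 18 counts, or 18.6 CPM, and the other 5 libraries were at 0. The reads fell on 2 tags that match the hairpin exactly and differ by the last base.
miR-301a-5p tags: gCTCTGACtttattgcactact and gCTCTGACtttattgcactac
The longer had 11 counts and the shorter 7. No sequence of the 3p arm was listed. Neither miR-130a-3p, miR-130b-3p nor miR-301a-5p passed the filter on low counts, and no fold is given for them.

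As a family, the members took 0.098%, 0.115% and 0.093% of the high glucose counts and 0.0089%, 0.0108% and 0.0035% of the low glucose counts. miR-130b-5p made up 98.1%, 98.4% and 97.9% of the family's reads in the high glucose libraries and 81.8%, 100% and 100% in the low glucose ones. The groups overlapped, and the share did not pass an exact two-sided permutation test (mean 98.1% ± 0.22 against 93.9% ± 10.5, SD, n = 3, p = 1.00). With 3 against 3 libraries no such test can go below 0.1. Low glucose replicate 1, at 9 of 11 counts, had an exact 95% interval of 48.2% to 97.7%, and without it the difference between the groups, 4.19 percentage points, turned to -1.87. The 3p arms of miR-130a and miR-130b, whose main sequences carry the shared seed AGUGCAA, had few reads in high glucose replicates 2 and 3. In low glucose replicate 1 they also had few, and in the other libraries none were listed. Besides the tags of miR-130a and miR-130b no listed arm had a main sequence with this seed or with its first 6 bases. Only the most abundant sequence of each arm was compared with the seed.

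The reads of miR-130b-5p came in 31 distinct sequences of 17 to 24 nt. All 31 were found in high glucose, 13 of them in every high glucose library. Low glucose had 3, and these were the 3 most abundant of high glucose. They are printed with bases 2 to 8 in capitals, since the start of the read sets the seed.
21 nt, positions 13 to 33: aCTCTTTCcctgttgcactac
22 nt, positions 13 to 34: aCTCTTTCcctgttgcactact
22 nt, positions 12 to 33: cACTCTTTccctgttgcactac
The 21 nt sequence was the most abundant in every library, at 430, 824 and 594 counts with high glucose and 7, 11 and 4 with low glucose. It is shorter by the final base than the annotated form, which is the 22 nt sequence from position 13. The annotated form had 202, 180 and 226 counts with high glucose and 2, 3 and 0 with low glucose. The sequence from position 12 had 81, 156 and 119 counts with high glucose. With low glucose it had 2 counts in replicate 2 and 0 in the others.

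The main sequence made up 46.5%, 56.9% and 48.4% of the miR-130b-5p reads in the high glucose libraries and 77.8%, 68.8% and 100% in the low glucose ones. Its mean share was 50.6% ± 5.56 in high and 82.2% ± 16.1 in low glucose (SD, n = 3). The groups did not overlap, with an exact two-sided permutation p of 0.1, the smallest possible, and 0.15 adjusted over 3 measures of these sequences. In the thinned libraries the means were 52.6% and 84.0%. The thinned high glucose libraries held 8.75 to 9.30 distinct sequences on average, against 1.00 to 2.65 in low glucose. Thinning equalised the library totals and not the counts of miR-130b-5p, which averaged 99.7 to 125 in high and 4 to 12.6 in low glucose. It therefore cannot show whether these differences go beyond the low number of counts. The low glucose shares rest on 9, 16 and 4 counts, and the part of this low number in the difference was not tested.

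The 5′ end was tighter than the 3′ end. Reads that start at position 13 made up 88.3%, 85.6% and 87.5% of miR-130b-5p in high glucose, and reads that start 1 base earlier 9.09%, 12.3% and 9.69%. In low glucose reads from position 12 were 0%, 12.5% and 0%, which overlapped with high glucose (means 10.4% ± 1.71 and 4.17% ± 7.22, SD, n = 3, exact permutation p = 0.4, adjusted 0.4). A start 1 base earlier moves the seed from CUCUUUC to ACUCUUU. In the RefSeq table the first seed belongs to miR-130b-5p alone and the second to none of the 693 mature miRNAs. In high glucose 87.0% ± 1.37 of the reads carried the first and 10.4% ± 1.71 the second (SD, n = 3). At the 3′ end, reads to position 33 took 59.2%, 73.0% and 62.8% in high glucose, and reads to position 34 took 25.9%, 15.0% and 22.1%. Reads that end at positions 30 to 32 took 7.25%, 10.5% and 12.3%, among them a 19 nt form with 42, 60 and 113 counts.

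**Figure D5:**
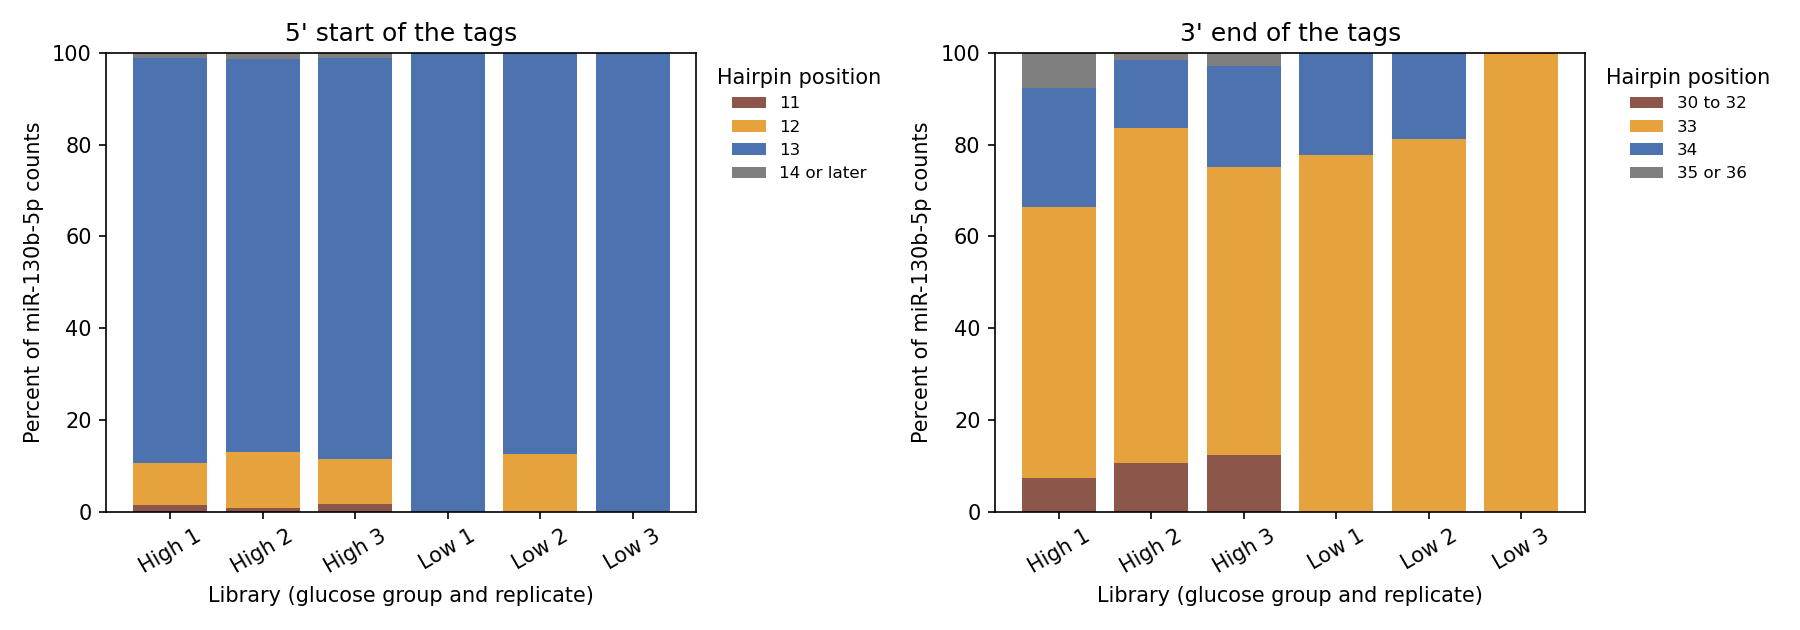
Stacked bars of the percent of miR-130b-5p counts in each library by the hairpin position of the first base (left) and the last base (right). Position 13 is the start of 85.6% or more of the counts in every library, while the ends spread over positions 30 to 36 in high glucose.

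Most reads matched the hairpin exactly. Exact reads were 89.1%, 91.8% and 91.8% of miR-130b-5p in high glucose and 100% in each low glucose library, means of 90.9% ± 1.58 and 100% (SD, n = 3). The low glucose shares rest on 9, 16 and 4 counts, at which the most frequent mismatched sequence, 57 of 3599 counts with high glucose, would bring 0.063 to 0.25 reads, so a difference in this share was not detectable at this depth. In the thinned libraries the high glucose mean was 93.2%. Of the high glucose reads 6.38% ± 0.97 differed at their last base, 1.66% ± 0.36 at their first and 1.07% ± 1.02 in between (SD, n = 3). The most frequent mismatched sequence, with seed in capitals, was a form of the annotated 22 nt sequence with A1C.
cCTCTTTCcctgttgcactact
It had 15, 17 and 25 counts in the high glucose libraries. T22C on the same 22 nt had 15, 16 and 16. On the 21 nt sequence C21T had 6, 35 and 4 counts and C21A 4, 8 and 25, so their order differed between libraries. Positions count from 1 at the 5′ end of the tag, and the hairpin's base comes first.

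The miR-148 and miR-152 family was set beside these members because its seed holds 6 of the bases of AGUGCAA 1 position later. In contrast to the 3p arms of the miR-130 family, its 3p arms were well counted. miR-148a-3p stood at 317 ± 103 CPM with high and 132 ± 24.9 CPM with low glucose (SD, n = 3) and was called higher by 1.27 on the log2 scale (SE 0.32, edgeR adjusted p = 0.00920). miR-152-3p stood at 1138 ± 128 and 2245 ± 151 CPM and was called lower, at -0.98 on the log2 scale (edgeR adjusted p = 0.00135). miR-148b-3p, at 513 ± 123 and 579 ± 50.3 CPM, did not pass (log2 fold change -0.17, edgeR adjusted p = 0.543). Lower calls made up 22.6% of the 297 tested arms. Of these 3 arms 1 was thus called in each direction.

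Among the 69 annotated tested arms outside the family with a mean level within 4-fold of that of miR-130b-5p, those whose log2 CPM followed it most closely over the 6 libraries were miR-99b-3p, let-7e-5p and miR-30e-5p, with Pearson's r of 0.98, 0.98 and 0.97. These values share libraries and depth and are set mainly by the step between the groups, and they are given as a description. The sizes of the step differed, with log2 fold changes of 0.85, 2.06 and 1.07 against 3.89 for miR-130b-5p.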

How the data were processed

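The authors' deposited files hold raw counts per distinct sequence and hairpin, per the file headers. Per the submitters' processing notes, Novoalign 3.02.12 and cutadapt 1.9.3 were used, with no roles given, and the genome build is not given in the sources used here. Listed sequences are 16 to 40 nt long with at least 2 reads and at most 1 mismatch. Where a sequence matched more than 1 hairpin, the deposited counts divide its reads among them. Identical hairpins and numbered copies were joined, and counts were summed per arm with Python 3.11.15, pandas 2.3.3, NumPy 2.4.6 and SciPy 1.17.1. All 932 arms entered edgeR 4.0.16 in R 4.3.3 (TMM, filterByExpr with a minimum count of 10, robust quasi-likelihood test, Benjamini-Hochberg adjustment at 0.05). On simulated data the fit made 67 calls, 4 of them false. Of the 932 simulated arms 316 passed the filter. Among these it recovered 11 of 16 changes of 2-fold, 22 of 23 of 4-fold and 30 of 31 of 8-fold. Changed arms that failed the filter are not in these counts, and the minimum of 2 reads per sequence was not simulated. The simulation assumed the same spread for every arm and made rises and falls equally likely, which the data need not share. Alternatives used limma 3.58.1 and DESeq2 1.42.0, and log2 CPM a prior count of 2. No replicate pair agreed within counting error (chi-square over degrees of freedom of 4.19 to 101). The rule named every listed member arm, the seed lists and the 3 arms most like miR-130b-5p. Members and lists were chosen with earlier results of these data known.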

Additional observations from a re-analysis of the deposited data

How the results depend on the processing

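The call and the direction of miR-130b-5p held under all 19 alternatives (other scalings and tests, other filters, a replicate block, thinned counts, fewer sequences or hairpins, and each library left out), with log2 fold changes of 3.29 to 4.51 and edgeR adjusted p from 3.35e-07 to 0.00235 in the edgeR fits that kept a filter. Without each library in turn the range was 3.59 to 4.51. With the replicate number as a block it was 3.95 (edgeR adjusted p = 0.000356), and the block changed no member's call. The labels do not say that the replicate numbers mark a shared culture or day, so the numbers were not taken to pair libraries. Deviations from the group means had correlations of 0.044, -0.00066 and -0.028 between same-numbered libraries. Between differently numbered ones they were -0.059 to 0.066. These values cannot decide on pairing, because counting error is large at the low glucose depths. Exact alignments only and annotated hairpins only were chosen after seeing the data. In the share of miR-130b-5p within the family, exact alignments alone turned the difference to -1.91 percentage points, since the tag of miR-130a-3p in low glucose replicate 1 carries a mismatch, and leaving out single libraries gave -1.87 to 7.22. Called higher were 67.5 of 164 tested arms (medians of the draws) after thinning, 78 of 201 with annotated hairpins only and 79 of 203 without high glucose replicate 2, in place of 122 of 297, shares of 38.8% to 41.2% against 41.1%. Elsewhere the share called higher varied more. It was 30.6% with upper quartile scaling, 29.8% to 30.4% without 1 low glucose library and 45.0% without high glucose replicate 3. With no filter it was 12.8% of 932 arms. Called lower were 40 of 236 (16.9%) with the most abundant sequence only and 41 of 388 (10.6%) without low glucose replicate 2, in place of 67 of 297 (22.6%). Depth limits the low glucose values most, where 29 counts carry the level of miR-130b-5p.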
